A study of Xenopus laevis with 12 samples.

Results

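Among the regions bound by Sox3 in Xenopus laevis explants, 22070 lay between genes at 10 to 50 kb from the closest transcription start site (TSS), out of 129376 peaks in both developmental stages together. They were chosen by position alone: the annotation of the peak is intergenic, and the absolute distance from its centre to the nearest TSS is above 10000 bp and at most 50000 bp. By this rule 21127 of 124076 peaks were taken at stage 9 and 943 of 5300 at stage 11.5. The remaining intergenic peaks lay closer to a TSS (16015 and 760 peaks within 10 kb) or farther away (13409 and 391 peaks beyond 50 kb).

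The ChIP-seq experiment used animal pole explants of wild-type embryos and an antibody against the Myc tag of a Sox3 supplied by injected mRNA. At stage 9 the explants were blastula stem cells, the pluripotent cells of the animal pole, and those of stage 11.5 had received wnt8a and chordin mRNA to bring them to the neural plate border, as had the controls of that stage according to the labels. At each stage 3 libraries from explants with Myc-tagged Sox3 and 3 control libraries without it were made, 12 in all, and the authors' peak calling left 1 list of peaks per stage. Because the bound protein was tagged and made from injected mRNA, the peaks do not report the endogenous protein. Stage, the wnt8a and chordin mRNA, sequencing instrument and depth cannot be told apart in these lists, and the depth is unknown. The number of libraries behind the stage 11.5 list is known from the methods text only. No spread between replicates could be computed, so that each test below compares 2 lists as they were called, and each interval covers counting error only.

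Sox3 is a member of the SoxB1 group, HMG box transcription factors that bind DNA in the minor groove, often beside a partner factor, and that are known for roles in pluripotent cells and in the early neural plate. Vertebrate enhancers are frequently located in the sequence between genes, far from the promoter they act on, on either side of it, and several binding regions may surround 1 gene. The nearest TSS is therefore only a positional label of a distal peak and does not identify the gene it may act on. X. laevis is an allotetraploid frog whose chromosomes fall into an L and an S subgenome, so that many genes have a copy on each.

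Among peaks with a nearest TSS, distal intergenic peaks made up a slightly larger part at the neural plate border than in the blastula; among all peaks the difference did not pass the test. At stage 11.5 they were 19.8% of the 4773 peaks with a nearest TSS, and at stage 9 they were 17.4% of 121735. The difference of 2.40 percentage points passed Fisher's exact test (two-sided, adjusted p = 4.87e-05 over the 6 comparisons of the stages). A nearest TSS was given for 90.1% of the stage 11.5 peaks and 98.1% of the stage 9 peaks, and of all peaks the members were 17.8% and 17.0%, a difference of 0.76 points (Fisher's exact test, adjusted p = 0.181, a comparison chosen after seeing the data). Over the peaks with a TSS the difference was 4.38 points with 1 peak per transcript, 4.72 with a minimum area of 100 and 1.12 in a window of 20 to 50 kb, each past the test. A larger share at stage 11.5 was not particular to the members. Of the peaks with a TSS, promoter peaks were 8.77% at stage 9 and 13.20% at stage 11.5. Intergenic peaks within 10 kb were 13.16% and 15.92%. Intron peaks went the other way, with 40.96% and 32.20%. Intergenic peaks beyond 50 kb also had a smaller share at stage 11.5, 8.19%. The changes in these other classes were not tested. Within the intergenic peaks the members were the most numerous of the 3 distance classes at both stages, with 45.0% at stage 11.5 and 41.8% at stage 9. The classes differ in width, the members' window being wider than that within 10 kb, so this ranking depends on the limits chosen and shows no preferred distance.

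The peaks were spread over the whole distance range and lay more often upstream than downstream of the nearest TSS at both stages. Upstream peaks were 12370 of 21127 at stage 9 (58.6%, Wilson 95% interval 57.9 to 59.2%) and 544 of 943 at stage 11.5 (57.7%, 54.5 to 60.8%). The stages differed by -0.86 points, a difference that did not pass Fisher's exact test (adjusted p = 0.612). Numbers fell with distance on both sides. At stage 9, 3217 peaks lay 10 to 15 kb upstream and 681 lay 45 to 50 kb upstream, against 1953 and 600 downstream. At stage 11.5 the same bins held 145 and 29 peaks upstream and 108 and 20 downstream. The median absolute distance was 22220 bp in the blastula and 22141 bp at the neural plate border. The upstream share was lower at larger distance at stage 9, going from 61.3% at 10 to 20 kb to 53.8% at 40 to 50 kb, whereas at stage 11.5 the shares were 56.0% and 61.6%, with intervals of 51.2 to 60.7% and 52.4 to 70.1% that overlap.

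**Figure D1:**
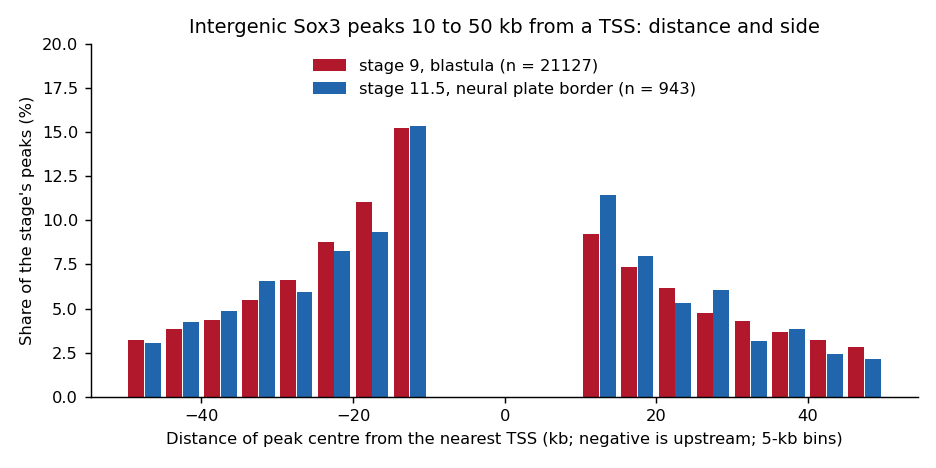
Share of each stage's intergenic peaks 10 to 50 kb from a TSS (vertical axis, percent) by the distance of the peak centre from that TSS (horizontal axis, kb, negative values upstream, bins of 5 kb), with red bars for stage 9 and blue bars for stage 11.5. Both stages have their highest bar 10 to 15 kb upstream, at 15.2% and 15.4%.

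Compared with intergenic peaks closer to genes, the distal members were less biased to the upstream side. Peaks at introns, exons or termination sites carry those labels and are left out of the intergenic class. Of these peaks, 29.0%, 15.2% and 10.9% respectively were upstream at stage 9. The part of this labelling in the upstream shares of intergenic peaks, members included, was not tested. Within 10 kb of a TSS, 73.8% of the intergenic peaks at stage 9 and 71.1% at stage 11.5 were upstream, 15.2 and 13.4 points more than among the members (Fisher's exact test, adjusted p = 2.58e-205 and 4.02e-08 over the 28 comparisons of members with other peaks). Beyond 50 kb the upstream share was 54.3% at stage 9, 4.28 points below the members (Fisher's exact test, adjusted p = 3.06e-14), and 60.6% at stage 11.5, where the difference of -2.93 points did not pass (adjusted p = 0.403).

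Distal binding regions were broader in the blastula. The median width was 224 bp at stage 9, with quartiles of 127 and 373 bp, and 134 bp at stage 11.5, with quartiles of 84 and 228 bp. Peaks wider than 200 bp were 55.3% of the stage 9 members and 31.2% of the stage 11.5 members, a difference of -24.1 points (Fisher's exact test, adjusted p = 6.43e-48). It was -40.4 points with 1 peak per transcript, the one of largest area, and -68.8 points against the 943 stage 9 members of largest area. Area is the peak score multiplied by the width, so both choices favour wide peaks by construction and are not further support. The narrowest members measured 26 and 34 bp and the widest 4299 and 6267 bp. In all, the stage 9 members covered 5861693 bp and the stage 11.5 members 174860 bp. At stage 11.5 the share above 200 bp was nearly the same in the members as in the intergenic peaks within 10 kb (31.2%) and beyond 50 kb (30.9%), with adjusted p = 1 and 0.983 by Fisher's exact test. At stage 9 the members stood between the near class at 57.7% and the far class at 52.6% (Fisher's exact test, adjusted p = 9.95e-06 and 1.53e-06).

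The peak score assigned by the authors' peak caller is a whole number limited to 1000. It was computed with the control libraries as background and is not read here as a measure of binding strength. Its median was 515 at stage 9 (quartiles 323 and 856.5) and 408 at stage 11.5 (270.5 and 794). Although the median was lower at stage 11.5, the share of members at the maximum score was higher, with 210 of 943 (22.3%) against 4025 of 21127 (19.1%). This difference of 3.22 points passed Fisher's exact test (adjusted p = 0.0239), but it was 0.93 points without the unplaced scaffolds (adjusted p = 0.609). Its direction turned with 1 peak per transcript, the one of largest area (-15.5 points, Fisher's exact test, adjusted p = 3.15e-17), and against the 943 stage 9 members of largest area (-66.0 points). Both choices favour high scores by construction, because the area rises with the score. At stage 11.5, 37 of the 78 members on scaffolds were at the maximum (47.4%), compared with 173 of the 865 members on assembled chromosomes. The peak area, which is the score multiplied by the width and divided by 1000 and is a lower bound at the maximum score, had a median of 98.9 at stage 9 and 53.5 at stage 11.5. The maximum score was at stage 11.5 more frequent in the members than in all other peaks with a TSS (14.0%), a difference of 8.25 points (Fisher's exact test, adjusted p = 6.56e-09). It was not distinguishable from the share in the near (19.2%) or far (23.5%) intergenic classes (Fisher's exact test, adjusted p = 0.197 and 0.689). In the other classes it was 23.1% at termination sites, 12.7% in exons, 10.1% in introns and 8.57% at promoters. At stage 9 the members were 0.57 points above all other peaks with a TSS (18.5%), which did not pass Fisher's exact test (adjusted p = 0.0871). They were below the near class (21.5%, adjusted p = 2.63e-08) and above the far class (17.2%, adjusted p = 1.97e-05, Fisher's exact test).

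**Figure D2:**
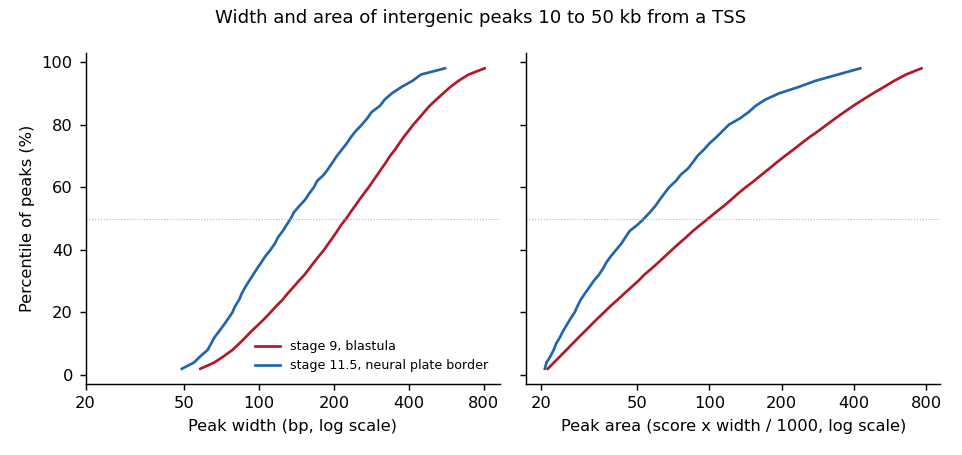
Percentile curves of peak width (left, bp, log scale) and peak area (right, score multiplied by width and divided by 1000, log scale) for the intergenic peaks 10 to 50 kb from a TSS, with stage 9 in red and stage 11.5 in blue and a dotted line at the median. The stage 11.5 curve lies to the left throughout, with medians of 134 against 224 bp and 53.5 against 98.9.

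The largest members by area were wide peaks at the maximum score, which follows from the definition of area. The same locus led both lists. On chromosome 3L (genome 9.2), a region of 4299 bp was bound at stage 9 at chr3L:143065808-143070106, centred 11209 bp upstream of the nearest TSS. At stage 11.5 a single peak of 6267 bp at chr3L:143064125-143070391 extended over it and over 2 further stage 9 peaks of 1026 and 97 bp, and its centre lay 10510 bp upstream of the same TSS. Both peaks stood just inside the limit of 10 kb.

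The next largest blastula regions were a peak of 2139 bp at chr2L:88049991-88052129 (24082 bp upstream of the nearest TSS) and a peak of 1878 bp at chr8S:74793191-74795068 (21641 bp upstream). Neither was overlapped at stage 11.5, where the nearest peaks were 779694 and 973310 bp away. A peak of 1872 bp at chr9_10S:19796281-19798152 (24887 bp downstream) was met at stage 11.5 by a peak of 77 bp inside it. At chr9_10L:46383897-46385576 a stage 9 peak of 1680 bp, 37144 bp downstream, held 2 stage 11.5 peaks of 778 and 395 bp.

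At the neural plate border, members ranked 2 and 5 by area were neighbours on chromosome 7S. A peak of 1106 bp at chr7S:44670325-44671430 covered 3 small stage 9 peaks of 63, 308 and 47 bp, and 102 bp beyond it a peak of 1485 bp at chr7S:44671533-44673017 had no stage 9 peak under it, the closest being 438 bp away. Both lay downstream of the nearest TSS, by 14119 and 15517 bp. The third largest, a peak of 1462 bp at chr8L:51209060-51210521 (16146 bp downstream), likewise had no stage 9 peak under it, with the closest at 430 bp. The fourth, a peak of 1251 bp at chr3L:4437918-4439168 (29285 bp upstream), overlapped a stage 9 peak of 1169 bp, and 4 narrower stage 11.5 peaks without a stage 9 peak, 59 to 170 bp wide, lay within 5 kb of it. All 5 of these stage 11.5 members had another stage 11.5 peak within 1 kb.

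The limits of the distance rule run through a continuous range of peaks. At stage 9 the members nearest to the 2 limits lay at 10001 bp (chr2L:80446488-80446688, score 155) and 50000 bp (chr8S:44531436-44531647, score 1000), and the intergenic peaks just outside lay at 10000 bp (chr8S:14067315-14067688, score 1000) and 50005 bp (chr8L:43916734-43917208, score 273). At stage 11.5 the members lay at 10015 bp (chr1L:150890185-150890250, score 621) and 49991 bp (chr5S:122167392-122167477, score 408), and the peaks just outside at 9992 bp (chr3S:22417142-22417415, score 359) and 50038 bp (chr3S:56252158-56252659, score 392).

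Most distal regions bound at the neural plate border overlapped a region bound in the blastula. At stage 11.5, 610 of the 943 members overlapped a stage 9 peak by 1 bp or more (64.7%, Wilson 95% interval 61.6 to 67.7%), near the 65.2% of all stage 11.5 peaks. In the other direction, 594 of the 21127 stage 9 members were overlapped by a stage 11.5 peak (2.81%, 2.60 to 3.04%), near the 2.72% of all stage 9 peaks. Overlap at stage 11.5 was lower in the members than in all other peaks with a TSS, of which 69.1% were overlapped. This difference of -4.37 points passed Fisher's exact test (adjusted p = 0.0208), but it did not pass when 50% or more of a peak was required to be covered (-3.19 points, adjusted p = 0.113). The comparison leaves out the stage 11.5 peaks without a nearest TSS. With them included, the share over all stage 11.5 peaks was 65.2%, close to that of the members. The share was 74.95% in introns, 69.2% at promoters, 68.1% at termination sites and 56.5% in exons. Near and far intergenic peaks were overlapped at 66.2% and 60.9%, and for neither did the difference from the members pass (Fisher's exact test, adjusted p = 0.629 and 0.266).

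For stage 9 the overlap was lowest in the intergenic class farthest from a TSS. It was 3.08% within 10 kb, 2.81% among the members and 1.72% beyond 50 kb. The step of 1.09 points from the members to the far class passed Fisher's exact test (adjusted p = 2.34e-10), and that of -0.27 points from the near class did not (adjusted p = 0.197). Against all other stage 9 peaks with a TSS (2.57%) the members were 0.25 points higher, which did not pass Fisher's exact test at the overlap of 1 bp (adjusted p = 0.0763), and which passed with a stricter overlap of at least 50% of the peak (0.22 points, adjusted p = 0.00132). Peaks without a nearest TSS are left out here too, and with them included all stage 9 peaks were overlapped at 2.72%. Promoter peaks of stage 9 had the highest share in the plot of overlap by class, 3.86%.

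**Figure D3:**
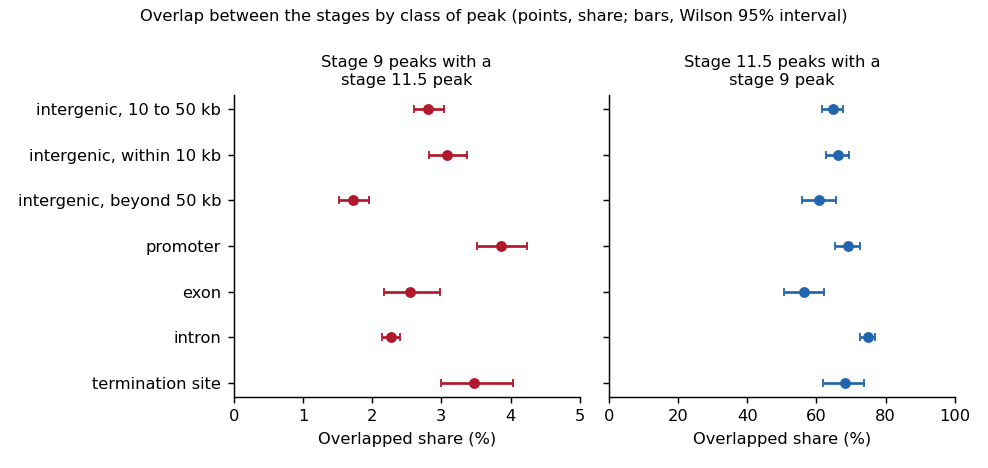
Share of stage 9 peaks overlapped by a stage 11.5 peak (left) and of stage 11.5 peaks overlapped by a stage 9 peak (right), in percent on axes of different range, for each annotation class; points are shares and bars Wilson 95% intervals. The intergenic peaks 10 to 50 kb from a TSS stand at 2.81% and 64.7%, and the intergenic peaks beyond 50 kb at 1.72% and 60.9%.

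Shared regions were among the wider and higher-scoring distal regions of the blastula. Stage 9 members with a stage 11.5 peak had a median width of 546 bp, against 219 bp for those without, and 74.6% of them were at the maximum score, against 17.4%. When the stage 9 members were split into 10 equal groups by area, the overlapped share rose from 0.0473% in the lowest group to 15.3% (324 of 2112) in the highest, which held 54.5% of all overlapped members. Other stage 9 peaks with a TSS in the same ranges of area went from 0.181% to 14.1%. Width itself raises the chance that a region meets another peak, and its part in this trend was not tested.

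The relation to the score was the opposite at stage 11.5. The overlapped members were wider, with a median of 171 bp against 86 bp, but scored lower, with a median of 360.5 against 529, and 15.4% of them were at the maximum score, against 34.8% of those without a stage 9 peak. The authors' calling set a minimum area, and the lowest areas in the lists were 19.936 at stage 9 and 19.992 at stage 11.5. A narrow peak therefore needed a higher score to be listed, and the part of this limit in the relation was not tested. The log odds ratio of the maximum score with overlap was 2.63 (SE 0.0960) at stage 9 and -1.08 (SE 0.161) at stage 11.5. By area the overlapped share at stage 11.5 was 45.5% in the lowest of 5 equal groups of members and 65.6, 73.0, 69.7 and 69.7% in the following groups. In the range of the lowest group the other peaks with a TSS were overlapped at 57.6%.

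**Figure D4:**
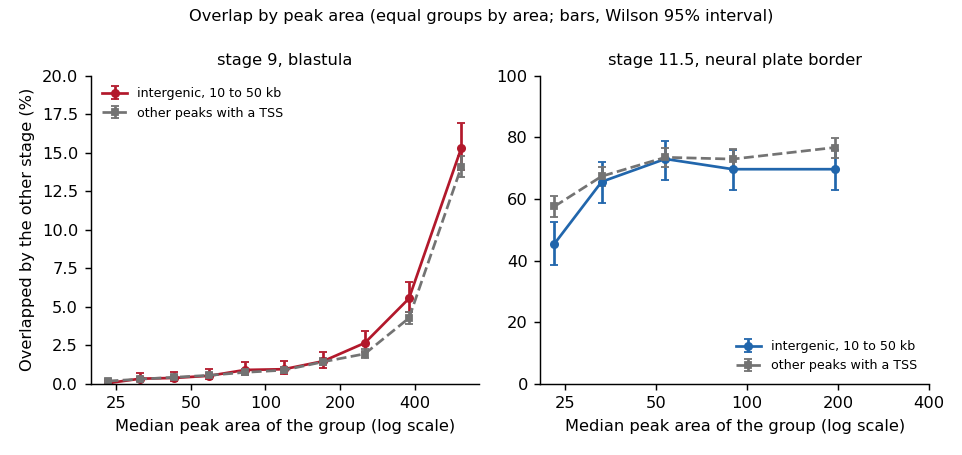
Share of peaks overlapped by the other stage (vertical axis, percent) against the median area of equal groups of peaks (horizontal axis, log scale), with 10 groups at stage 9 (left, red) and 5 groups at stage 11.5 (right, blue); grey squares are the other peaks with a TSS in the same ranges of area and bars are Wilson 95% intervals. At stage 9 the members rise from 0.0473% to 15.3%, and at stage 11.5 they go from 45.5% in the lowest group to between 65.6% and 73.0% in the others.

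Where both stages had a peak, that of the neural plate border was usually a narrow peak within a broad blastula region. For each of the 610 overlapped stage 11.5 members, the stage 9 peak with the longest overlap was itself a member, and for 606 of them the nearest transcript was the same. Both counts follow largely from position, since overlapping peaks lie at nearly the same distance from a TSS. The stage 11.5 peak lay wholly inside the stage 9 peak in 479 pairs (78.5%) and was the narrower one in 558 (91.5%). The median width of the stage 9 partners was 553.5 bp, the median ratio of the widths 2.91, and the centres were a median of 66 bp apart. Among the partners 459 (75.2%) were at the maximum score. Across the 610 pairs, the listed areas at stage 9 and stage 11.5 were hardly related, with a Spearman correlation of 0.02, and the widths weakly, at 0.19. For the 459 partners at the maximum score the area equals the width and is a lower bound. The correlation of areas therefore cannot tell whether the underlying signals were related. Both correlations are given as descriptions, since pairs are not replicates and maximum scores are tied.

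The 333 stage 11.5 members without an overlapping stage 9 peak lay at widely varying distances from stage 9 peaks. The nearest stage 9 peak was a median of 8621 bp away, with quartiles of 1559 and 18770 bp. It was within 1 kb for 66 of them, within 10 kb for 186 and beyond 50 kb for 19. For 203 (61.0%) the nearest transcript also had a distal intergenic peak at stage 9, and for 281 (84.4%) it had a stage 9 peak of any class. The stage 9 list is dense, and the median gap from a stage 9 member to the nearest other stage 9 peak was 5234 bp, below the 8621 bp found here. The distances and shares to be found for arbitrary positions were not computed, so these values are descriptions only.

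Distal peaks were counted by nearest transcript, for which the lists give an internal identifier. The stage 9 members were assigned to 11134 transcripts and the stage 11.5 members to 776. More than 1 distal peak was found at 5160 of the stage 9 transcripts (46.3%) and 109 of the stage 11.5 transcripts (14.0%), a difference of -32.3 points (Fisher's exact test, adjusted p = 2.45e-76). The direction turned when the stage 9 members were limited to the 943 of largest area. The share at stage 11.5 was then higher by 5.96 points (Fisher's exact test, adjusted p = 0.000262). That choice changes the number of members and their area together, and the part of each was not tested. When peaks below an area of 100 were dropped at either stage, the difference was -22.5 points (Fisher's exact test, adjusted p = 2.14e-13). That setting still held 10490 stage 9 members against 247 at stage 11.5. Neither it nor the comparison of all members, 21127 against 943, can separate the stage from the number of members. Of the 776 transcripts, 653 (84.1%) had a distal peak at stage 9 too, which is 5.86% of the 11134 stage 9 transcripts. For 606 of the 610 overlapped stage 11.5 members the stage 9 partner had the same nearest transcript, so this count in part repeats the overlap of peaks. The share to be found for arbitrary transcripts was not computed.

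Transcripts with many distal peaks in the blastula more often had one at the neural plate border. A stage 11.5 member was found for 3.11% (Wilson 95% interval 2.70 to 3.58%) of the 5974 transcripts with 1 stage 9 member, 5.27% of the 2693 with 2, 10.5% of the 1877 with 3 or 4 and 21.7% (18.6 to 25.2%) of the 590 with 5 or more. These are shares of transcripts, with no test. The length of intergenic sequence around each transcript was not taken into account, and its part in this rise was not tested. Per stage 9 member the overlapped share rose less, from 2.16% to 4.29%. Of the 776 transcripts with a stage 11.5 member, 656 (84.5%) had no other kind of stage 11.5 peak, 51 (6.57%) had a peak within 5 kb of the TSS and 11 (1.42%) a promoter peak. At stage 9, 28.1% of the transcripts had distal peaks only, 41.5% also had a peak within 5 kb and 14.3% a promoter peak. The stage 9 list holds 124076 peaks and the stage 11.5 list 5300. These shares were not matched for list size, and its part in the difference was not tested.

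The transcripts with the most distal peaks differed between the stages. At stage 9, rna50060 on chromosome 8S had 15 members between 11604 and 49604 bp from its TSS, 6 of them upstream, spread over 98539 bp; 6 were at the maximum score and the widest measured 767 bp. It also had a small peak 41 bp from the TSS and 9 intergenic peaks beyond 50 kb. Stage 11.5 had 2 peaks there, both overlapping a stage 9 peak. The only member lay 13934 bp downstream, 216 bp wide with a score of 248, inside a stage 9 peak of 652 bp at the maximum score, and the other peak, 241 bp wide with a score of 618, lay 80738 bp downstream.

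The transcript rna47359 on chromosome 5S had 14 stage 9 members, all downstream, from 10133 to 48093 bp, with widths of 50 to 515 bp. No stage 11.5 peak of any class was assigned to it.

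The leading transcript at stage 11.5 was rna85302, with 9 distal peaks within 10096 bp of an unplaced scaffold (Scaffold156:81552-91647). All 9 lay upstream, from 27979 to 37858 bp, all were at the maximum score, and their widths ranged from 42 to 847 bp. Stage 9 had 5 members there, 4 of them at the maximum score, and each overlapped a stage 11.5 peak, whereas 4 of the 9 stage 11.5 peaks overlapped a stage 9 peak.

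For rna62570 on chromosome 9_10S, 8 stage 11.5 members lay 42494 to 49810 bp upstream and 6 more intergenic peaks beyond 50 kb, so that the limit of 50 kb divided this group. Of the 8 members 7 were at the maximum score, and 3 overlapped a stage 9 peak. Stage 9 had 4 members and 5 peaks beyond 50 kb in the same stretch, with member widths of 101 to 179 bp. The members of both stages stood close together at these 2 loci, over 9125 bp at stage 9 and 10096 bp at stage 11.5 for rna85302 and over 6825 and 7419 bp for rna62570.

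**Figure D5:**
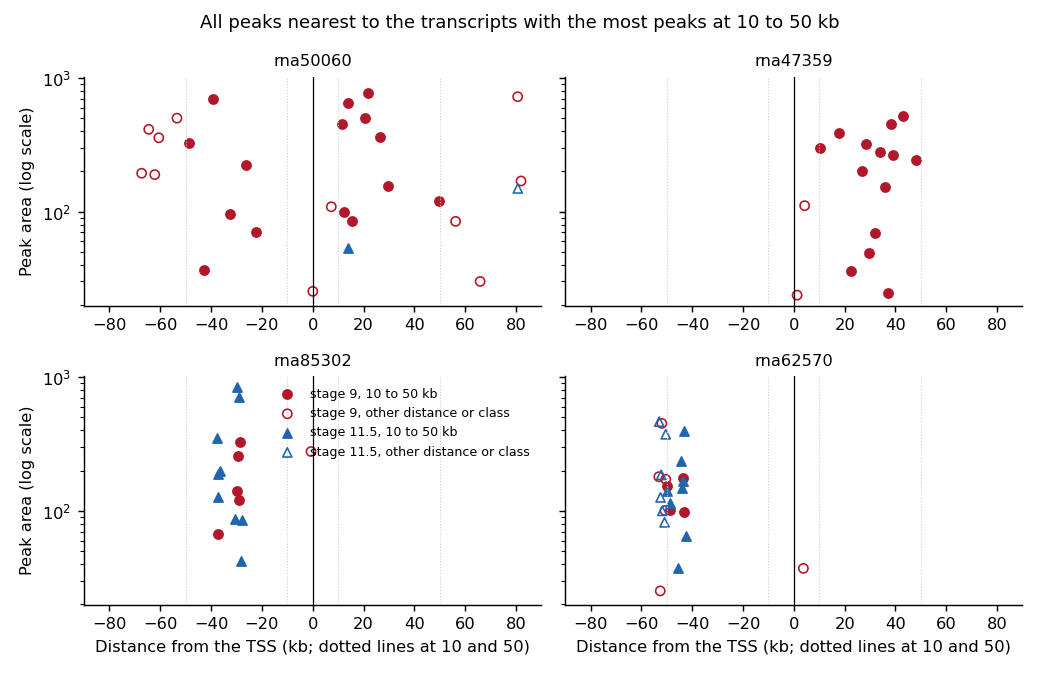
All peaks assigned to the transcripts with the most intergenic peaks at 10 to 50 kb (top row, chosen at stage 9; bottom row, at stage 11.5), by distance from the TSS (horizontal axis, kb, dotted lines at the limits) and area (vertical axis, log scale); red circles are stage 9, blue triangles stage 11.5, and open symbols are peaks at other distances or of other classes. The 15 and 14 stage 9 members of rna50060 and rna47359 are spread over the window, and the members of both stages at rna85302 and rna62570 stand close together.

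Most members had no other peak of the same list within 1 kb. The size of the difference between the stages depended on the gap allowed, and its direction on the set of peaks taken. At stage 9, 4234 members (20.04%) had another stage 9 peak within 1 kb, and at stage 11.5, 161 (17.1%) had another stage 11.5 peak, a difference of -2.97 points (Fisher's exact test, adjusted p = 0.0325). The nearest peak of the same list was a median of 5234 bp away at stage 9 and 58972 bp at stage 11.5, and 66.6% and 30.01% of the members had one within 10 kb. With the 5300 stage 9 peaks of largest area as the list, as many as at stage 11.5, the direction was reversed: the share at stage 11.5 was higher by 14.5 points (Fisher's exact test, adjusted p = 1.49e-25, a comparison chosen after seeing the data). It was also reversed with peaks of an area of at least 100 in both lists (8.36 points, Fisher's exact test, adjusted p = 0.000165).

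Linking peaks with gaps of up to 1 kb gave 2039 groups with a member at stage 9 and 69 at stage 11.5. Groups of 3 or more peaks numbered 278 and 21, and those of 5 or more 15 and 3. The 3 at stage 11.5 lay at rna62570 and rna85302, the loci described above, and are not separate observations. The longest groups held 8 peaks at both stages, at stage 9 on chromosome 8L (chr8L:6568738-6573773, 6 of them members, 0 at the maximum score) and at stage 11.5 on chromosome 9_10S (chr9_10S:44283586-44288155, 2 of them members, all 8 at the maximum). At stage 11.5, members with a neighbour were at the maximum score in 50.9% of cases and those without in 16.4%, with Wilson 95% intervals of 43.3 to 58.5% and 13.9 to 19.1%. At stage 9 the shares were 19.0% and 19.1%. The 161 stage 11.5 members with a neighbour lay in only 69 groups, and rna85302 alone gave 9 of them, all at the maximum. Neighbouring peaks are thus linked, while these intervals and the tests on neighbours count them as separate. Unplaced scaffolds held 27 of the 161 stage 11.5 members with a neighbour, and 34.6% of the members on scaffolds had one; the part of the assembly in this was not tested. Against other peaks with a TSS, the members were grouped less often at stage 9 (-5.45 points, adjusted p = 8.56e-64) and more often at stage 11.5 (3.55 points, adjusted p = 0.0116, Fisher's exact test). Among the intergenic classes of stage 9, they were grouped less often than the near peaks (25.8%, adjusted p = 2.05e-38) and more often than the far peaks (15.5%, adjusted p = 2.05e-26, Fisher's exact test). For stage 11.5 the difference passed neither against the near (15.0%, adjusted p = 0.347) nor against the far peaks (14.8%, adjusted p = 0.403, Fisher's exact test).

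Distal binding was found on every chromosome of both subgenomes. On the assembled chromosomes 9599 stage 9 members lay on S and 10460 on L, so that S held 47.9% (Wilson 95% interval 47.2 to 48.5%), and at stage 11.5 it held 46.8% (43.5 to 50.2%). Among all peaks S held 44.8% and 42.3%. The overlapped share on L and S was 2.73% and 2.85% at stage 9, with overlapping intervals of 2.44 to 3.06% and 2.54 to 3.21%, and 65.0% and 68.4% at stage 11.5, where the intervals of 60.5 to 69.2% and 63.7 to 72.7% overlap. The members' share of a chromosome's peaks ranged from 13.4% (9_10L) to 20.8% (5S) at stage 9 and from 13.8% (4L) to 30.3% (7S, 54 of 178 peaks) at stage 11.5. Scaffolds held 5.06% of the stage 9 members and 8.27% of those of stage 11.5. These shares were near those of the other peaks with a TSS. Of the latter 94.6% and 90.7% lay on the assembled chromosomes, compared with 94.9% and 91.7% of the members. The stage 11.5 members on scaffolds were overlapped at 43.6%, against 66.6% on the assembled chromosomes. The share over all scaffold peaks is not given here.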

How the data were processed

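The ChIP-seq reads of 3 Sox3 and 3 control libraries per stage were trimmed with fastp, aligned with bowtie2 (Xenopus laevis, assembly 9.2), called with Genrich and annotated with HOMER by the authors. The deposited lists give for each peak its position, a score, the annotation and the distance to the nearest TSS. The score in the deposited lists is Genrich's, the mean area per bp of the caller's own statistic multiplied by 1000 and limited to 1000. The calling used the control libraries as background and set a minimum peak area. The depth is unknown, since the lists hold no counts. The calling methods describe a group's libraries together, but the header for stage 11.5 names a run and no replicates. That the stage 11.5 list was called from all 3 Sox3 libraries therefore rests on the methods text.

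Members, neighbours and overlaps were computed from the lists (1-based) in Python 3.11.15 using pandas 2.3.3, scipy 1.17.1, numpy 2.4.6 and, for plots, matplotlib 3.10.9. In 26939 of 26939 transcripts with several peaks, the distances fitted 1 TSS within 2 bp when measured from the peak centre. Shares were compared with two-sided Fisher's exact tests, Benjamini-Hochberg adjusted over 6 comparisons of the stages or 28 of members with other peaks, which count peaks and not replicates; log odds ratios were compared with a z test. The code was tested on simulated data. The members and lists were chosen with earlier results of these data known. Alternatives covered the set of peaks, the distance window, the overlap rule and the limits.

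Regions named are the 5 largest members per stage on assembled chromosomes, those at the distance limits, and the 2 transcripts per stage with the most members; the largest groups were named after their values were seen. Of 11257 transcript identifiers of members, 0 matched the available gene table, which is of another assembly. Genes are therefore given no names, and sequences and motifs were not analysed here.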

Additional observations from a re-analysis of the deposited data

Results flagged for a closer look

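The relation between the maximum score and overlap differed between the stages among the intergenic peaks 10 to 50 kb from a TSS. The log odds ratio was 3.71 higher at stage 9 than at stage 11.5 (SE 0.187, z = 19.8 for the difference), with 74.6% of the overlapped stage 9 members at the maximum score against 17.4% of the others, and 15.4% of the overlapped stage 11.5 members against 34.8%. This was known from all peaks of these lists and is not independent support. The test counts peaks, and stage, the wnt8a and chordin mRNA, depth and instrument cannot be told apart. Narrow peaks needed a higher score to reach the minimum area of the calling, and the part of this in the difference was not tested.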

How the results depend on the processing

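Of 79 alternative values, 49 gave an unchanged direction and call, or a shift within counting error. Differences between the stages are stage 11.5 minus stage 9, in percentage points, and the causes of the changes were not tested beyond the construction of each alternative. The difference in the members' share was 0.76 over all peaks of a list (added after seeing the data). The upstream difference was 2.53 in a window of 20 to 50 kb. The difference in peaks with a neighbour within 1 kb was 0.50 with 1 peak per transcript, 8.36 with a minimum area of 100, -0.27 at 20 to 50 kb and 14.5 with as many stage 9 peaks as stage 11.5 peaks (added after seeing the data). It was -24.5 and -36.6 with gaps of 5 and 10 kb. The difference in maximum scores was 0.93 on assembled chromosomes, -15.5 with 1 peak per transcript, -66.0 against the 943 largest stage 9 members, 2.04 at 5 to 50 kb and 0.46 for scores of 900 or more. The difference in transcripts with several members was 5.96 against the 943 largest. Selecting the largest stage 9 peaks selects for width and score by construction. The overlapped share of stage 11.5 members was 71.7% within 1 kb. That of stage 9 members was 0.857% with at least 50% covered, 1.79% with the midpoint inside, 3.51% within 1 kb, 5.24% with 1 peak per transcript and 1.51% with a minimum area of 100. The deficit of the stage 11.5 members against other peaks with a TSS did not pass with 50% covered (-3.19), the midpoint (-2.94), 1 peak per transcript (-3.45), a minimum area of 100 (-5.91) or 20 to 50 kb (-4.78). The excess at stage 9 passed with 50% covered (0.22), the midpoint (0.28), assembled chromosomes (0.28), 1 peak per transcript (1.01), a minimum area of 100 (0.28) and 5 to 50 kb (0.30), and was -0.052 within 1 kb. No paired analysis was possible because there is 1 list per stage, which also means that no replicate could be left out.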
